A study of Mus musculus with 10 samples.

Results

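The comparison described here set the transcriptome of mouse B cells labelled as homozygous for an Nr4a1 knockout allele against that of wild-type B cells, both after antigen receptor crosslinking. It used 8 of the 10 libraries of the study, 4 of each genotype, chosen by their labels alone. All cells came from C57BL/6 mice of 10 weeks; they were taken from spleen and lymph node and enriched by magnetic removal of other cells. Each of the 8 cultures had received anti-IgM at 10 µg/mL for 2 hours. The remaining 2 libraries, 1 of each genotype, were unstimulated and serve only as a description of the starting level. The labels give the genotype of the animals without describing the knockout allele. They do not say whether library letters A to D stand for separate mice, so the p-values measure the spread between these libraries, which may be technical.

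Anti-IgM crosslinks the membrane IgM receptor of B cells and starts tyrosine kinase, calcium, MAP kinase and NF-kB signalling. Within the first hours this switches on immediate early transcription factors, among them the orphan nuclear receptors of the Nr4a family: Nr4a1 (Nur77), Nr4a2 (Nurr1) and Nr4a3 (Nor1). These receptors bind DNA through a shared zinc finger domain, can act as monomers on the element called NBRE, and are widely used as reporters of antigen receptor signal strength. In B cells, Nr4a1 is known as a negative feedback regulator that limits the response to antigen received without a second signal.

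Levels are in FPKM (fragments counted per kilobase of transcript, relative to the size of the library), estimated per gene by the authors. Differences are knockout minus wild type on the scale of log2(FPKM + 1), a scale on which genes of about 1 FPKM appear to change less than they do. A gene was called when its limma adjusted p, over the 10225 genes whose mean reached 1 FPKM, was under 0.05. The stimulated libraries had relative depths between 0.953 and 1.06. Each correlated with the other 3 of its group at 0.991 to 0.995 over genes, which are not independent replicates. Summed FPKM was 557214 to 571784 in the stimulated libraries. It was larger in the unstimulated wild-type library (674961) and the unstimulated knockout-labelled library (595500). Comparisons with unstimulated levels use FPKM as deposited, without correction for this. Single libraries stood apart in some genes: knockout-labelled B in dividing cell genes (Mki67 at 10.88 FPKM against 4.91 to 4.96 in the other 3) and wild-type B in inflammatory genes (Cxcl2 at 41.4 FPKM against 11.9 to 14.7). B cell genes were high in all 8 (Cd79a at 469 to 529 FPKM, Ms4a1 at 215 to 236 FPKM). Of 11 T cell markers, 9 were below the level tested.

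Nr4a1 itself (chromosome 15, 101253902 to 101274795, build GRCm38) did not separate the groups. Its level was 806, 744, 826 and 856 FPKM in the stimulated wild-type libraries, in the order A to D, against 713, 675, 760 and 660 FPKM in those labelled knockout. The 2 groups overlapped, because knockout-labelled library C lay above wild-type library B. The difference was -0.20 (SE 0.0531, limma adjusted p = 0.0432), and it passed the threshold in 9 of 19 alternative settings; of the fits that left out 1 library, only those without wild-type B or knockout-labelled C kept the call. Gene-level Nr4a1 therefore gives no check of the genotype labels, and directions are stated by label.

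Over all tested genes, 994 of 10225 (9.72%) were called, 400 of them higher (3.91%) and 594 lower (5.81%) with the knockout label. These shares are the background against which the gene groups below are read. They are not matched for level: 4.86% of genes under a mean of 5 FPKM were called, and 17.8% from 100 FPKM. Whether a list departs from genes of similar level was not tested. The lists were chosen with earlier results of these data known, and some hold a marker gene given with the comparison. A share above the background can follow from that choice and is no separate result. The median difference of all genes was -0.024, and it was 0.0084 with median-of-ratios scaling, which turned the split to 535 higher and 401 lower. Only 90 called genes (0.88%) differed by at least 1.5-fold, 18 of them higher (0.176%) and 72 lower (0.704%). Libraries of the 2 genotypes did not overlap for 1588 genes (15.5%), with the knockout-labelled libraries above in 5.96% of genes and below in 9.57%.

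**Figure D1:**
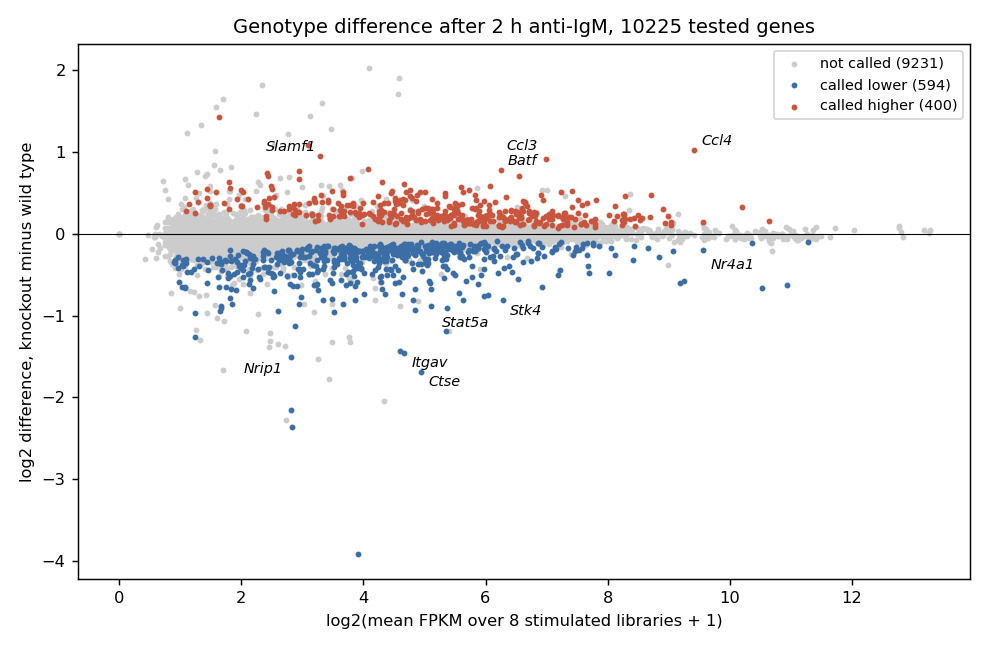
Each point is 1 of the 10225 tested genes, by its mean level over the 8 stimulated libraries (horizontal, log2 of mean FPKM + 1) and its difference, knockout minus wild type (vertical, log2). Called genes are coloured by direction; called genes reach further below the zero line (Glycam1 at -2.37) than above it (Rnpep at 1.42). The lowest point is the small nucleolar RNA gene Snora44, listed at 0 in wild-type library C and in all 4 knockout-labelled libraries, for which no fold is given.

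Short stretches of promoter around a perfect NBRE are shown first, since this is the element that Nr4a receptors bind as monomers. The NBRE letters AAAGGTCA were searched on both strands in windows from 250 bases before to 50 bases after the annotated start, from RefSeq with build GRCm38.p6. Windows were on hand for 7892 of the tested genes (77.2%), so the shares below describe only genes with a window. A perfect match was found in 72 of these 7892 windows (0.912%), in 1 of 307 windows of genes called higher (0.326%) and in 5 of 475 of genes called lower (1.05%). The 6 called genes with a match are printed below, 5′ to 3′ on the strand of the gene, with the element or its reverse complement in capitals.
BC035044, called lower (chr6:128891213-128891242, minus strand): taagctcatgcAAAGGTCAgagagctacag
Trim30b, called lower (chr7:104358867-104358896, minus strand): ggtgtcAAAGGTCAaaggtcgttccaatgg
Helb, called lower (chr10:120113139-120113168, minus strand): cccaagagtcgTGACCTTTcaccacgtctc
Kat7, called lower (chr11:95310253-95310282, minus strand): ctcactggcctAAAGGTCAggtgacgcaag
Aimp2, called lower (chr5:143909867-143909896, minus strand): ttggccaactcAAAGGTCAagttggtgacg
Tank, called higher (chr2:61592907-61592936, plus strand): agacactgaagTGACCTTTaaacaaatgac
The differences of these genes were modest: -0.62 for BC035044, -0.43 for the tripartite motif gene Trim30b, -0.24 for the helicase Helb, -0.18 for the histone acetyltransferase Kat7, -0.12 for the tRNA synthetase scaffold Aimp2 and 0.21 for Tank, an adaptor of TRAF signalling.

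The 20 rises and 20 falls named by rule are the largest calls whose libraries did not overlap. For them, the lack of overlap and the passing of the threshold follow from that choice and are no separate result. Among the 41 genes named by rule (Nr4a1, 20 rises and 20 falls), 33 had a window, and none of these held a perfect NBRE. The AP-1 element TGANTCA, the Egr element GCGTGGGCG and the cAMP response element TGACGTCA were also absent from these 33 windows. None of these strings contains another. Over all 7892 windows, the Egr letters occurred in 1.33% and those of the cAMP response element in 3.66%. With shares this low, absence from 33 windows is no result about the named genes. An ETS element, CCGGAAG, was present in 3 of the 33 windows: Batf, Tecpr1 and Stk4. Over all windows, the ETS letters occurred in 7.17% of genes called higher, 17.1% of genes called lower and 21.8% of all 7892; this is a description without a test. AP-1 letters occurred in 6.19%, 5.68% and 4.45%, in the same order. The 250 bases before the start of Batf, the transcription factor with a large rise, and of Nrip1, the coregulator with a large fall, are printed to show the sequence context, with the ETS match of Batf in capitals. The RefSeq table lists 2 starts for Nrip1, and the first is used.
Batf (chr12:85686470-85686719, plus strand): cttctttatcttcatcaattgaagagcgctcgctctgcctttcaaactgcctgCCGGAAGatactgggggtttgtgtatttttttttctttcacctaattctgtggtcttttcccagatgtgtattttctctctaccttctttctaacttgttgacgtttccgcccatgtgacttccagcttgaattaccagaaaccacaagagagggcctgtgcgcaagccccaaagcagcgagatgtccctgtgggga
Nrip1 (chr16:76373828-76374077, minus strand): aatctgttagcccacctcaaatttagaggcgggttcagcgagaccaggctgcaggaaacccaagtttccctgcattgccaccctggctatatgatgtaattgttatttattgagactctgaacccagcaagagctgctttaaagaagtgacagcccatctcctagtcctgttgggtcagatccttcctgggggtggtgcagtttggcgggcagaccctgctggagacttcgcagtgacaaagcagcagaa
A missing match says only that these letters are not in the window.

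Both relatives of Nr4a1 were higher in the knockout-labelled libraries. In wild type, from library A to D, Nr4a2 stood at 10.87, 10.98, 11.08 and 12.23 FPKM, against 21.6, 18.7, 21.9 and 19.3 FPKM with the knockout label. Every knockout-labelled library was above every wild-type library, with a difference of 0.80 (SE 0.060, limma adjusted p = 4.58e-05). Nr4a3 stood at 118, 116, 129 and 132 FPKM in wild type against 189, 168, 185 and 166 FPKM. Its groups did not overlap either, and the difference was 0.51 (limma adjusted p = 0.000453). In the unstimulated pair Nr4a2 was at 2.90 FPKM in the wild-type library and 5.10 in the library labelled knockout, and Nr4a3 at 17.5 and 22.7 FPKM.

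The chemokine pair Ccl3 and Ccl4, secreted attractants of immune cells, stood among the 4 largest rises named by rule. Ccl4 (chromosome 11, 83648624 to 83664683) was at 433, 397, 473 and 493 FPKM in the wild-type libraries and at 937, 889, 965 and 857 FPKM in the knockout-labelled libraries. The lowest knockout-labelled library was above the highest wild-type library. The difference was 1.02 (SE 0.0661, limma adjusted p = 2.39e-05). Ccl3 (chromosome 11, 83647843 to 83649378) was at 81.8, 82.5, 86.7 and 95.2 FPKM against 180, 164.5, 168 and 146 FPKM. Again no libraries overlapped, and the difference was 0.92 (SE 0.0671, limma adjusted p = 3.98e-05). The annotated spans of these genes overlap in RefSeq and the use of strand in counting is not given in the sources used here, so the division of fragments between them is uncertain. Unstimulated, Ccl4 was at 76.4 and 103 FPKM and Ccl3 at 27.8 and 35.1 FPKM in the wild-type library and the library labelled knockout, so both transcripts were above their unstimulated level in each stimulated library.

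Of 32 chemokine and cytokine genes listed, 24 were tested, 6 were called higher and 1 lower, with a median difference of 0.084. Besides the chemokine pair, those higher were the angiogenic factor Vegfa, lymphotoxin alpha (Lta, 0.52), tumour necrosis factor (Tnf, 0.51) and interleukin 10 (Il10, 0.71). Vegfa was at 57.4, 49.7, 53.1 and 51.6 FPKM in the wild-type libraries and at 87.9, 72.0, 78.6 and 82.9 FPKM in the knockout-labelled libraries, up from 5.33 and 5.16 FPKM without stimulation. The stimulated groups lay apart (0.59, SE 0.0629, limma adjusted p = 0.000355), while the unstimulated pair was nearly level. The groups of Il10 met at 4.54 FPKM, and its call (limma adjusted p = 0.0369) was lost in 5 of the 8 fits that left out 1 library, those without wild-type A, C or D or without knockout-labelled A or B. Xcl1, lymphotactin, was the one called lower: 3.25, 3.94, 4.70 and 2.71 FPKM in wild type against 1.79, 1.23, 1.54 and 1.57 FPKM (-0.86, limma adjusted p = 0.00282).

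**Figure D2:**
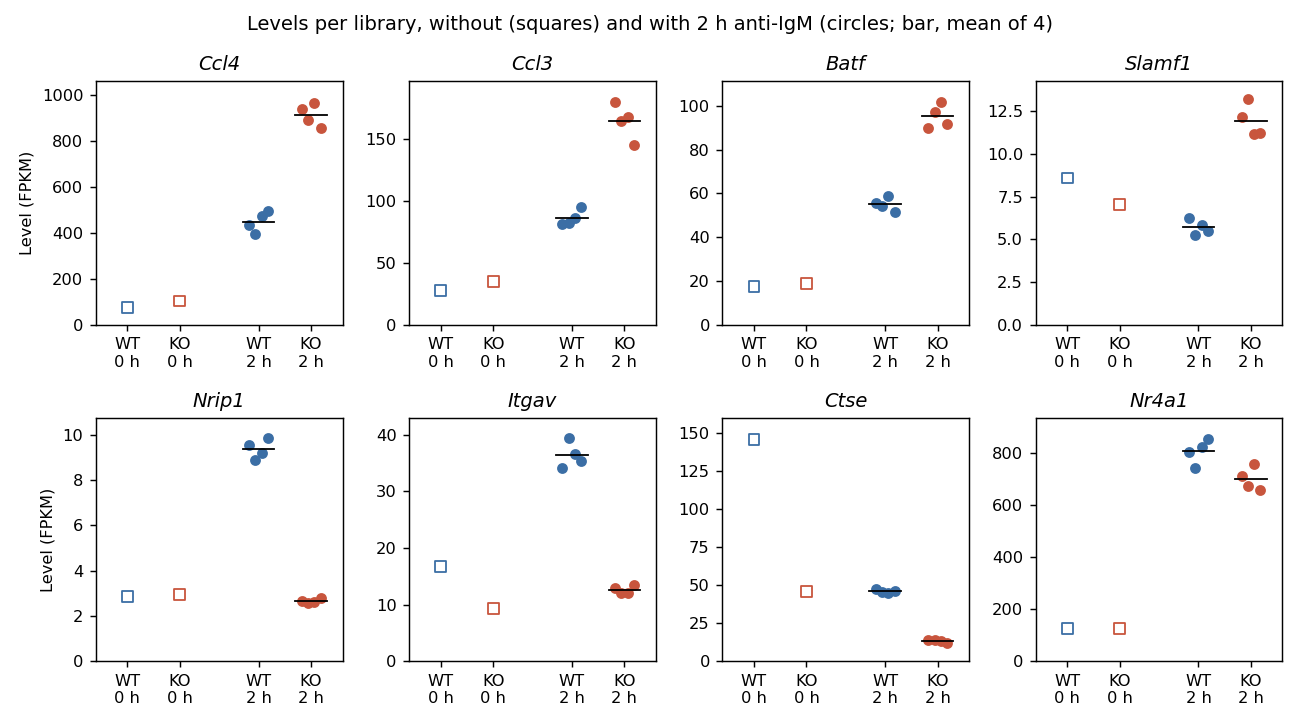
FPKM of 8 genes in every library, on an axis from 0 for each gene; squares are the unstimulated libraries, circles the libraries after 2 hours of anti-IgM, and bars the mean of 4. Ccl4, Batf and Slamf1 circles of the knockout-labelled group lie above all wild-type circles, and those of Nrip1, Itgav and Ctse lie below them, while the Nr4a1 circles overlap.

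Of 22 immediate early transcription factor genes listed and tested, 10 were called higher (45.5%) with the knockout label and the other 12 did not pass; the median difference was 0.13. Each of the 3 other scalings tried also called 10 higher. The count of genes called lower was 0 in limma, with 1 gene (Jun) lower at an unadjusted p under 0.05. The 10 were the AP-1 member Fosl2 (0.47), the zinc finger factors Egr3 (0.41), Egr2 (0.41) and Egr1 (0.26), their corepressors Nab2 (0.39) and Nab1 (0.14), the small Maf protein Maff (0.41), the response genes Ier2 (0.21) and Ier5 (0.20), and the repressor Bhlhe40 (0.19). The call of Ier2 was lost without wild-type library B or knockout-labelled library A, and that of Nab1 without wild-type A, C or D or knockout-labelled B or C. Egr2 stood at 82.4, 84.6, 81.2 and 83.2 FPKM in the wild-type libraries and at 115, 112, 109 and 105 FPKM in the knockout-labelled libraries, without overlap (limma adjusted p = 5.76e-05). Fos ranged from 3.98 to 5.83 FPKM in the wild-type libraries and from 4.39 to 5.36 FPKM in the other group, and did not pass (limma adjusted p = 0.595). The median difference of this list in the unstimulated pair was 0.474, in 1 library each. Egr2 was at 10.9 and 19.7 FPKM and Egr1 at 20.9 and 31.6 FPKM before stimulation. In the same pair the medians of the other functional lists ran from -0.147 (SLAM family) to 0.356 (calcium and NFAT genes, and the Nr4a family). The median of all tested genes in this pair is not given here. How far 0.474 departs from it was not tested.

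Batf, an AP-1 family factor that acts together with Irf4 in activated B cells, showed the largest difference of its list. It was at 55.8, 54.1, 59.0 and 51.6 FPKM in the wild-type libraries and at 90.1, 97.1, 102 and 91.8 FPKM in the knockout-labelled libraries (chromosome 12, 85686720 to 85709087). All 4 knockout-labelled libraries exceeded all wild-type ones, with a difference of 0.78 (SE 0.0489, limma adjusted p = 2.06e-05). Unstimulated levels were 17.4 FPKM in the wild-type library and 18.7 FPKM in the library labelled knockout. Of 15 tested genes in the list of Batf, Irf and B cell fate factors, 3 were called higher and 1 lower (median 0.00049, a sign that turned after quantile normalization). The other 2 rises were Prdm1 (Blimp1, the driver of plasma cell differentiation, 0.44) and the ETS factor Spib (0.34). Id2, an inhibitor of E proteins, was at 36.4, 39.5, 43.1 and 46.8 FPKM in the wild-type libraries and lay between 24.9 and 26.1 FPKM in the knockout-labelled libraries (-0.67, limma adjusted p = 0.000229). Irf4 itself ranged from 970 to 1040 FPKM in the wild-type libraries and from 1055 to 1113 FPKM in the knockout-labelled libraries, which did not pass (0.098, limma adjusted p = 0.0674). Tbx21 (T-bet), a T-box factor also made by activated B cells, rose by 0.55, from 3.10 to 3.85 FPKM in wild type to 5.21 to 6.05 FPKM.

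Slamf1, a homotypic receptor of the SLAM family on lymphocytes, was at 6.25, 5.23, 5.81 and 5.50 FPKM in the wild-type libraries and at 12.2, 13.2, 11.2 and 11.2 FPKM in the knockout-labelled libraries (chromosome 1, 171767131 to 171801184). The groups lay far apart, with a difference of 0.95 (SE 0.0663, limma adjusted p = 3.17e-05). Without stimulation it was at 8.58 FPKM in the wild-type library and 7.04 FPKM in the library labelled knockout. Its stimulated level was 0.664 times the unstimulated one in wild type and 1.69 times in the knockout-labelled libraries, in FPKM as deposited. With 1 unstimulated library each, this difference in response was not tested. Of 7 tested SLAM family genes, 4 were called higher: Slamf1, Slamf6 (0.50), Cd84 (0.38) and Slamf7 (0.31). Cd48, Ly9 and Slamf9 did not pass. The median of the 7 was 0.31 after stimulation and -0.15 in the unstimulated pair. Slamf6 was at 17.6, 16.4, 17.8 and 17.0 FPKM in the wild-type libraries and at 27.9, 24.6, 21.9 and 24.5 FPKM in the knockout-labelled libraries, while its unstimulated levels were 36.2 and 34.0 FPKM.

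Costimulatory and checkpoint molecules were also called higher in part, 5 of 13 tested, with 1 lower and a median of 0.095. The activation antigen Cd69 was at 251, 259, 271 and 257 FPKM in the wild-type libraries and at 367, 342, 359 and 364 FPKM in the knockout-labelled libraries (0.46, limma adjusted p = 2.95e-05). Its unstimulated levels were 120 FPKM in both genotypes. Pdcd1lg2 (PD-L2, 0.42), Cd86 (a ligand of Cd28 on T cells, 0.26), Cd274 (PD-L1, 0.17) and the inhibitory receptor Btla (0.16) completed the rises. Cd40, the receptor for T cell help, went the other way: 41.4, 47.1, 42.5 and 43.8 FPKM in wild type against 32.4, 34.8, 33.0 and 32.4 FPKM (-0.39, limma adjusted p = 0.000445). Both TNF receptor family calls, of 8 tested, were higher: the death receptor Fas (0.48) and the BAFF receptor Tnfrsf13c (0.23). Among 12 tested MHC class II presentation genes only H2-DMb1 was called (8.33%, against 9.72% over genes of all levels). As TPM 3 were called, and with median-of-ratios scaling 2. The call of H2-DMb1 was lost in 6 of the 8 fits without 1 library, all but those without wild-type A or B. It was also lost after quantile normalization.

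NF-kB subunits and inhibitors were called higher in 5 of 15 tested (33.3%), with a median of 0.10; 3 were called without wild-type library B and 8 with median-of-ratios scaling. The nuclear inhibitor Nfkbid was the largest, at 950 to 1090 FPKM in the wild-type libraries and 1246 to 1429 FPKM in the knockout-labelled libraries (0.33, limma adjusted p = 0.00459). Antigen receptor signalling genes split both ways, 4 higher and 3 lower of 20 tested. The exchange factor Vav1 (0.37), the paracaspase Malt1 (0.37), the adaptor Pik3ap1 (BCAP, 0.36) and Grb2 (0.25) were higher. The receptor chain Cd79b (-0.32) and the kinases Lyn (-0.20) and Btk (-0.17) were lower. Cd79b was at 390, 377, 365.5 and 386 FPKM in the wild-type libraries and at 293, 326, 302 and 295 FPKM in the knockout-labelled libraries, with unstimulated levels of 1595 and 1385 FPKM. Its partner Cd79a did not pass (0.054, limma adjusted p = 0.474).

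MAP kinase feedback genes were called both ways. Of 11 tested, the phosphatases Dusp1 (-0.42), Dusp5 (-0.30) and Dusp4 (-0.25) were lower, Dusp2 was higher (0.19) and the other 7 did not pass; the list median was -0.026, and 0.032 after quantile normalization. The E3 ligase Cblb (-0.49), a brake on receptor signalling, was lower as well, at 8.71 to 9.87 FPKM in the wild-type libraries and 5.68 to 6.81 FPKM in the knockout-labelled libraries. The inhibitory phosphatase Inpp5d (SHIP1) was higher (0.25). In the list of inhibitory coreceptors and phosphatases 3 genes were called each way of 15 tested. Among those higher, the call of Cd5 was lost in 6 of the 8 fits without 1 library. Among those lower, the call of Ceacam1 was lost in 7 of these fits and in each other scaling. Of 18 calcium and NFAT genes, Orai1 (the store-operated channel, 0.31) and Nfatc1 (0.25) were higher and 16 did not pass. Toll-like receptor genes were higher in 5 of 17 tested, with the receptor-like Cd180 the largest (64.9 to 69.8 FPKM in wild type, 86.7 to 96.7 FPKM in the knockout-labelled libraries, 0.45).

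The largest falls included a small set of genes that anti-IgM raised in wild type and that stood near or below the unstimulated level in the knockout-labelled libraries; with 1 unstimulated library each, the difference in response was not tested. Nrip1 (RIP140, a corepressor recruited by nuclear receptors; chromosome 16, 76287403 to 76373827) was at 9.56, 8.89, 9.22 and 9.88 FPKM in the wild-type libraries and at 2.65, 2.60, 2.62 and 2.78 FPKM in the knockout-labelled libraries. Its unstimulated levels were 2.86 and 2.97 FPKM, so only the wild-type libraries stood above them. The difference was -1.50 (SE 0.0487, limma adjusted p = 5.58e-07). Trib1, a pseudokinase scaffold, followed the same course, at 8.65, 8.53, 8.85 and 9.51 FPKM against 4.51, 4.70, 4.50 and 4.16 FPKM, from 3.42 and 3.82 FPKM unstimulated (-0.85, limma adjusted p = 1.49e-05). The glutamate receptor gene Grm6 was lower in level, at 1.91 to 2.39 FPKM in the wild-type libraries and 0.49 to 0.73 FPKM in the knockout-labelled libraries, from 0.88 and 1.01 FPKM (-0.96). It reached the tested mean of 1 FPKM only through the stimulated wild-type libraries, so its call is no support for a difference. These 3 were picked out for their course after their values were seen. Of 17 tested nuclear receptor coregulators only Nrip1 and Ncoa3 (-0.14) were called, the latter lost without wild-type A or D or knockout-labelled D and as TPM. The other nuclear receptors, 13 tested, gave 1 call each way, Rara (0.23) and Esrra (-0.18). The call of Esrra was lost in each other scaling and in 6 of the 8 fits without 1 library.

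Other genes reached a lower level in the knockout-labelled libraries by 2 courses. Stat5a and Myb stood above their unstimulated level in both genotypes, but less so with the knockout label. Stk4 and Tecpr1 stood at 1.10 and 1.16 times their unstimulated level in wild type. With the knockout label both genes stood below their unstimulated level (0.718 and 0.597 times). These are ratios of FPKM as deposited, and the unstimulated libraries had the larger summed FPKM, above all that of wild type. Stat5a, a cytokine-activated transcription factor, was at 45.5, 41.4, 43.9 and 44.7 FPKM in the wild-type libraries and at 24.0, 22.3, 23.1 and 24.2 FPKM in the knockout-labelled libraries, from 14.1 and 11.04 FPKM unstimulated. No libraries overlapped (-0.88, SE 0.0391, limma adjusted p = 2.45e-06). Myb, a factor of progenitor and activated lymphocytes, was at 38.3, 33.4, 39.4 and 35.9 FPKM against 18.5, 19.5, 16.6 and 20.5 FPKM, from 15.6 and 13.1 FPKM. It too lay apart (-0.93, limma adjusted p = 4.22e-05). The Hippo pathway kinase Stk4 (Mst1) was at 95.9 to 99.9 FPKM in wild type, 1.10 times its unstimulated level of 89.4 FPKM, and at 53.3 to 58.7 FPKM in the knockout-labelled libraries, from 77.4 FPKM (-0.81, limma adjusted p = 1.55e-06). Tecpr1, which takes part in autophagosome maturation, was at 13.4 to 15.0 FPKM in the wild-type libraries and 6.26 to 7.43 FPKM in the knockout-labelled libraries (-0.95), with an unstimulated pair of 12.2 and 11.5 FPKM.

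A second set of falls was present before stimulation. Ctse, the aspartic protease cathepsin E (chromosome 1, 131638314 to 131675507), was at 47.4, 45.6, 44.7 and 46.2 FPKM in the wild-type libraries and at 13.97, 14.3, 13.7 and 12.4 FPKM in the knockout-labelled libraries. The groups lay far apart with little spread inside either (-1.69, SE 0.0448, limma adjusted p = 1.76e-07). Unstimulated, it was at 146 and 46.1 FPKM, a difference of -1.64 in 1 library each. Itgav, the integrin alpha V subunit (chromosome 2, 83722303 to 83806917), was at 34.1, 39.5, 36.7 and 35.4 FPKM against 13.0, 12.0, 12.0 and 13.6 FPKM. It did not overlap (-1.45, SE 0.0544, limma adjusted p = 1.39e-06), and its unstimulated levels were 16.7 and 9.34 FPKM. Zinc finger genes Zfp52 (-1.44) and Zfp948 (-1.12), the kinase inhibitor Pkig (-1.19), Tmem51 (-0.94), the receptor chain Il9r (-0.94) and Ide (insulin-degrading enzyme, -0.90) also had unstimulated differences of at least 1.5-fold in the same direction. Altogether 9 of the 20 named falls had such an unstimulated difference on the scale of log2(FPKM + 1). On that scale 5 were within 0.2 of no difference before stimulation. By FPKM alone further falls would pass 1.5-fold unstimulated, such as Igf2bp3 (1.89 and 1.02 FPKM). These counts are a description, as the matching shares of all tested genes are not given here.

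The other members of the lists of Ctse and Itgav moved little or both ways. Of 13 tested cathepsins and inhibitors, Ctse and Lgmn (legumain, -0.17) were lower. The call of Lgmn was lost in 6 of 8 fits without 1 library, all but those without wild-type A or knockout-labelled B. It was also lost with median-of-ratios scaling. Among 19 tested integrins and adhesion molecules, 4 were called lower and 2 higher, with a median of -0.12. Those lower were Itgav, the hyaluronan receptor Cd44 (-0.46), the beta 2 chain Itgb2 (-0.28) and Icam2 (-0.24). Icam1, the ligand of beta 2 integrins, was at 102 to 107 FPKM in the wild-type libraries and 133 to 143 FPKM in the knockout-labelled libraries (0.41, limma adjusted p = 3.36e-05), and Itgb7 was higher by 0.24.

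Receptors that guide B cells within lymphoid tissue changed in 8 of 14 tested (57.1%), 5 higher and 3 lower. Cxcr4, the receptor for Cxcl12, was at 714, 746, 708.4 and 748 FPKM in the wild-type libraries and at 507, 484, 483 and 473 FPKM in the knockout-labelled libraries (-0.58, SE 0.0295, limma adjusted p = 5.55e-06). Ccr6 was at 67.0, 71.9, 68.4 and 73.6 FPKM against 46.9, 46.9, 46.1 and 41.7 FPKM (-0.62, limma adjusted p = 3.94e-05). Neither overlapped. Their unstimulated levels were 853 and 768 FPKM for Cxcr4 and 93.9 and 105 FPKM for Ccr6. Ccr7, which draws B cells to the T cell zone, was lower by 0.21. The genes called higher included the sphingosine phosphate receptor S1pr3 (0.52), Gpr55 (0.38), the cannabinoid receptor Cnr2 (0.21) and the oxysterol receptor Gpr183 (0.18). The calls of Ccr7 and Gpr183 were each lost in 1 other scaling, median-of-ratios and quantile normalization in that order.

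**Figure D3:**
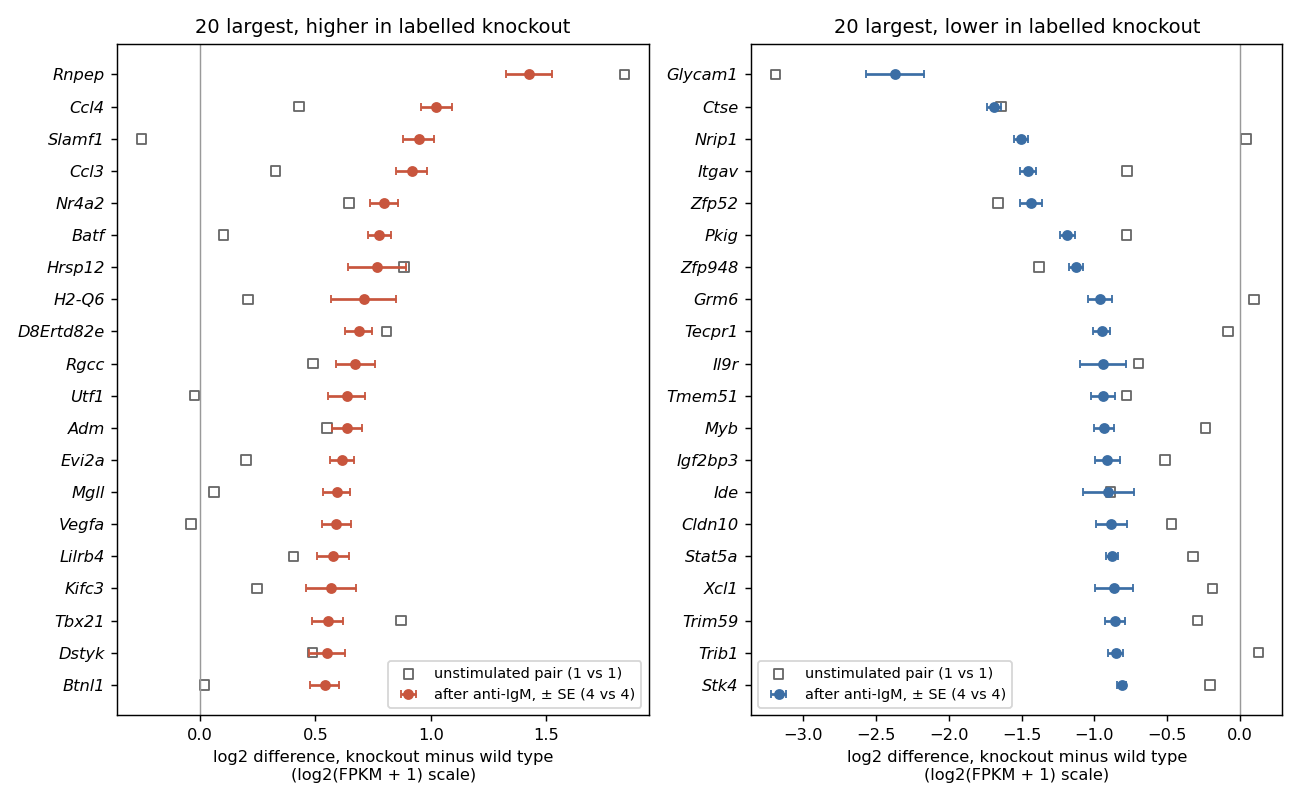
The 20 largest rises and 20 largest falls named by rule, with the difference after stimulation (circles, log2, bars 1 SE) and that of the single unstimulated pair (squares). Falls such as Glycam1, Ctse and Zfp52 have squares close to or beyond their circles, whereas the squares of Nrip1, Trib1, Vegfa and Utf1 lie near 0.

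Rises outside these groups were a mixed set. The aminopeptidase Rnpep had the largest of those named by rule, at 0.77, 0.79, 0.52 and 0.69 FPKM in the wild-type libraries and 3.10, 4.16, 3.90 and 3.08 FPKM in the knockout-labelled libraries, and it was already apart unstimulated, at 1.16 and 6.76 FPKM (1.42). It reached the tested mean only through the libraries with the knockout label, so its call is no support for a difference. The metabolic enzyme Hrsp12 (0.77), D8Ertd82e (0.69), the cell cycle regulator Rgcc (0.67), the chromatin factor Utf1 (0.64), the peptide hormone adrenomedullin (Adm, 0.64), Evi2a (0.62), the lipase Mgll (0.59), the kinesin Kifc3 (0.57), the kinase Dstyk (0.55) and the butyrophilin-like Btnl1 (0.54) followed. H2-Q6 (0.71) and Lilrb4 (0.57) belong to families of near-identical copies, so fragments may be shared among members and their values are uncertain. Of the 20 rises, 14 were genes whose wild-type mean rose at least 1.5-fold over the unstimulated library, as a ratio of FPKM as deposited. On the scale of log2(FPKM + 1), an unstimulated difference of at least 1.5-fold in the same direction was present in 5. In 1, Slamf1, the unstimulated difference was at least 0.2 in the opposite direction. By FPKM alone further rises would pass 1.5-fold unstimulated, such as Dstyk (3.77 and 5.69 FPKM). The matching shares of all tested genes are not given here, so these counts are a description only. The largest limma adjusted p among the 20 rises was 0.0119, for H2-Q6.

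Further falls were the RNA-binding protein Igf2bp3 (-0.91), the claudin Cldn10 (-0.88) and Trim59 (-0.86). Glycam1, an L-selectin ligand made by the high endothelial venules of lymph nodes, showed the largest fall of the genes named by rule. It was at 9.41, 9.56, 7.92 and 17.1 FPKM in the wild-type libraries and at 1.69, 1.08, 1.10 and 1.13 FPKM in the knockout-labelled libraries, and at 20.7 and 1.37 FPKM unstimulated (-2.37, SE 0.198, limma adjusted p = 8.84e-05). Other stroma and vessel markers were low: the other 8 genes of that list summed to 0.33 to 0.91 FPKM in the wild-type libraries and 0.16 to 0.55 FPKM in the knockout-labelled libraries. In bulk samples, fewer cells of a type and less RNA per cell cannot be told apart.

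Marker genes of other cells moved with the genotype in places, and their part in the results was not tested. Platelet markers summed to 7.78 to 11.7 FPKM in the wild-type libraries and 4.12 to 7.75 FPKM in the knockout-labelled libraries, and NK cell markers to 2.61 to 3.95 and 1.97 to 2.58 FPKM. Monocyte, macrophage and granulocyte markers ranged widely within both groups, from 66.4 to 172 and from 44.2 to 126 FPKM, with Mpo at 0 in all 8 libraries. None of the 11 tested myeloid genes was called with limma, and 2 were lower at an unadjusted p under 0.05. Erythroid markers ranged from 13.4 to 66.6 and from 7.88 to 38.1 FPKM. T cell markers summed to 49.4 to 52.6 FPKM in the wild-type libraries and 66.9 to 69.4 FPKM in the knockout-labelled libraries; nearly all of that sum was the kinase Lck (43.7 to 48.1 and 64.4 to 66.9 FPKM, 0.48), while Tcf7 was lower (-0.67), a call lost in 5 of the 8 fits without 1 library (wild-type A, C or D, knockout-labelled A or D). Of 11 marginal zone B cell markers, S1pr3 was higher and the complement receptor Cr2 (-0.52), the scavenger receptor Cd36 (-0.59) and Dtx1 (-0.14) were lower. The call of Dtx1 was lost in each other scaling and in 7 of the 8 fits without 1 library.

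Interferon response genes leaned one way. Of 30 tested, 29 had a negative difference and 7 were called lower (23.3%), with a median of -0.27 against -0.024 for all genes. The count was 1 without a filter on low values, 4 with median-of-ratios scaling, 3 after quantile normalization, 2 without wild-type library C, wild-type library D or knockout-labelled library D, and 9 without knockout-labelled library C, while the median stayed between -0.31 and -0.15 in the alternatives tried. The monocyte, macrophage and granulocyte markers had a similar median, -0.27, with 11 of 11 tested genes negative, and their part in this result was not tested. Trim30a, an interferon-induced tripartite motif gene, was at 16.1, 14.1, 17.0 and 14.7 FPKM in the wild-type libraries and at 10.4, 10.5, 12.8 and 10.5 FPKM in the knockout-labelled libraries (-0.45, limma adjusted p = 0.00507).

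**Figure D4:**
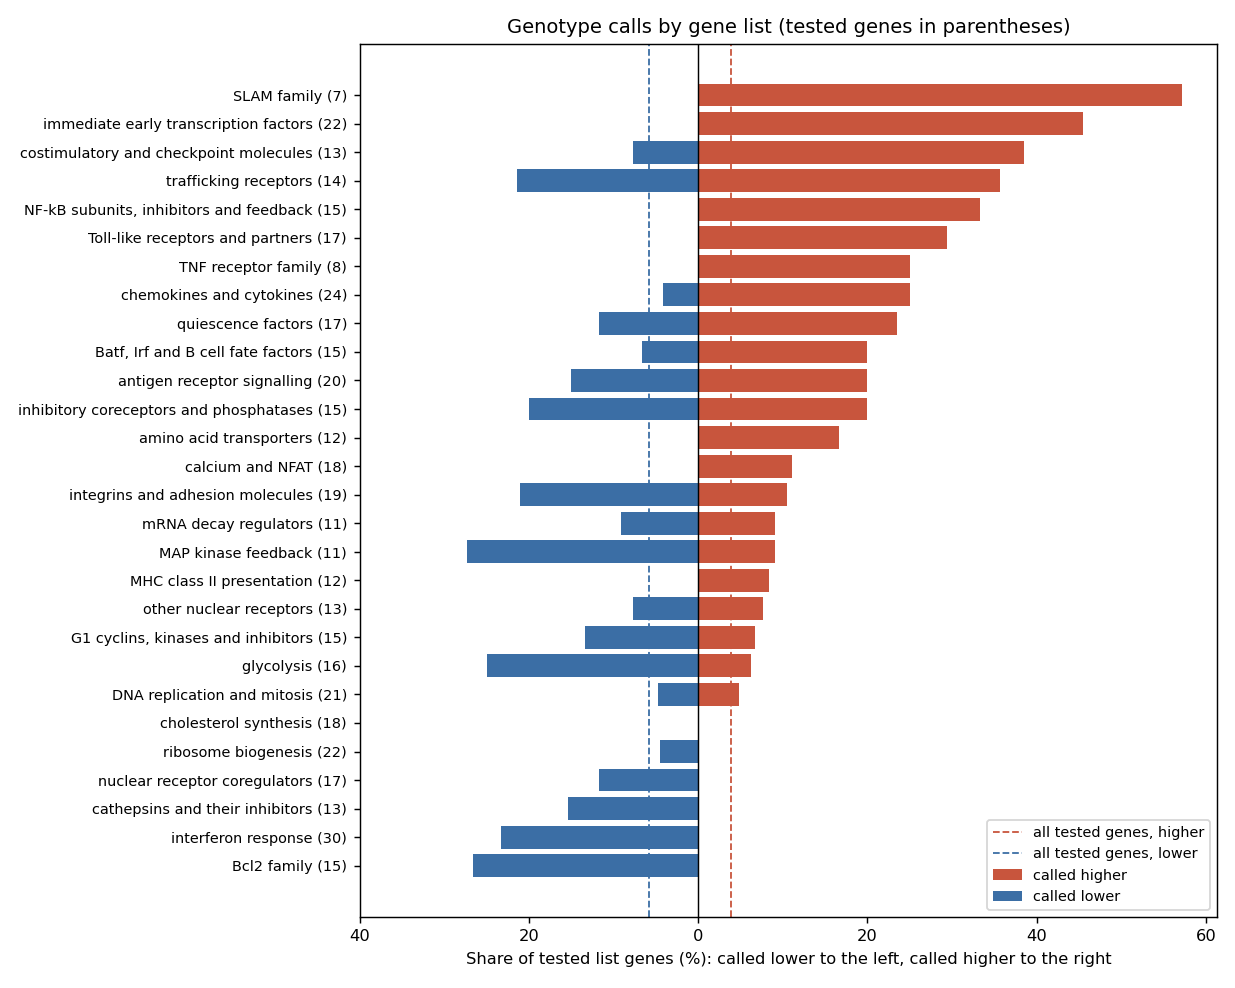
Share of tested genes called higher and lower in the knockout-labelled libraries for each functional gene list (cell type markers are not drawn) with at least 7 tested genes; dashed lines mark the shares over all 10225 genes (3.91% higher, 5.81% lower). Immediate early factors, SLAM family and costimulatory genes extend furthest on the higher side, and MAP kinase feedback, Bcl2 family, glycolysis and interferon response genes on the lower side. The lists were chosen with earlier results of these data known.

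Survival and cell cycle genes showed small differences. Of 15 tested Bcl2 family genes, 4 were called lower, the BH3-only proteins Pmaip1 (Noxa, -0.48), Bmf (-0.32) and Bid (-0.17) and the survival protein Mcl1 (-0.14, not called with median-of-ratios scaling); the list thus holds falls of genes that promote and of genes that oppose cell death. Among G1 regulators, 15 tested, cyclin D2 (Ccnd2, 0.26) was higher and Rb1 (-0.43) and Cdk6 (-0.23) were lower. Only the fits without knockout-labelled B or C kept the call of Cdk6 among those that left out 1 library. This call was also lost as TPM. Ccnd2 was at 90.2 to 103 FPKM in the wild-type libraries and 111 to 118 FPKM in the knockout-labelled libraries. DNA replication and mitosis genes gave 1 call each way of 21 tested (9.52%, at the background share): Mcm6 was lower (-0.33) and Pcna was called higher (0.10). The call of Pcna was lost in 6 of the 8 fits without 1 library, all but those without wild-type C or knockout-labelled A. It was also lost after quantile normalization. Without knockout-labelled library B, which held more Mki67, Top2a (12.93 FPKM against 7.74 to 8.39) and Ccnb1 (4.62 FPKM against 2.34 to 2.84) than the other 3, 3 genes were called lower and the median moved from -0.048 to -0.15. Quiescence factors gave 4 calls higher, each of at most 0.25, and 2 lower of 17 tested, with Foxp1 lower by 0.21. The calls higher numbered 3 without knockout-labelled library B and 2 without any other single library.

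Position in the genome was described through the RefSeq table for 9758 tested genes (95.4%). Within 5 Mb of Nr4a1 on chromosome 15, 12 of 83 other tested genes were called (14.5%), 8 higher and 4 lower. Farther than 10 Mb away on that chromosome the share was 43 of 295 (14.6%), and on other chromosomes 914 of 9370 (9.75%). Single chromosomes varied, and the share on chromosome 1 (16.1%) was above that of the whole of chromosome 15 (14.4%), with chromosome 6 at 13.7%. Next to Nr4a1, the scaffold gene Grasp was higher (0.28) and the autophagy gene Atg101 was lower (-0.22), and Glycam1 lies 2.31 Mb away. Pairs were formed of called genes with at least a 1.5-fold difference on the scale of log2(FPKM + 1). Those that start within 1000 kb of each other numbered 18, and 16 of them moved the same way. This was counted after the values had been seen. As 72 of the 90 genes called at 1.5-fold or more on that scale were lower, many pairs at any distance share a direction. The share expected was not computed. The pairs are also not independent: every pair among 5 neighbouring genes of chromosome 6 is counted, and Ccl3 with Ccl4, whose spans overlap. They include Zfp52 with Zfp948 on chromosome 17 (32.1 kb apart), the glycosyltransferase Lfng with Ttyh3 on chromosome 5 (13.2 kb, -0.76 and -0.79), Pkig with Stk4 on chromosome 2 (415.9 kb) and 5 genes on chromosome 6, lectin-like receptors among them (BC035044, Clec2d, Clec7a, Klrd1 and Klri1). The call of Klrd1, which is in 4 of the pairs, was lost in 6 of the 8 fits without 1 library (wild-type A, C or D, knockout-labelled B, C or D) and in each other scaling. Ctse and Il10 on chromosome 1, 618.5 kb apart, moved in opposite directions.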

How the data were processed

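Polyadenylated RNA of enriched B cells was sequenced in 10 libraries after stranded mRNA library preparation, as the labels' protocols state. The authors deposited 1 table of FPKM for 17658 genes; per the submitters' processing notes STAR 2.4, RSEM 1.2.14 and build mm10 were used, while annotation, filtering and strand use are not given in the sources used here. FPKM carry no counts, so no count model was fitted and absolute depth is unknown; relative depth came from low genes whose values step by whole fragments (134 of 320 genes searched).

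Values were transformed as log2(FPKM + 1). The 10225 genes whose mean over the 10 libraries reached 1 FPKM were fitted over the 8 stimulated libraries with limma 3.58.1 in R 4.3.3 (lmFit, eBayes with trend), two-sided, with Benjamini-Hochberg adjustment over all 10225 genes; the script was tested on simulated data. Named genes are Nr4a1, the 7 marker genes given with the comparison (Ccl4, Ccl3, Batf, Slamf1, Nrip1, Itgav and Ctse) and the 20 largest called rises and 20 largest called falls without overlap, leaving out accession-like symbols. The members and the 43 gene lists were chosen with earlier results of these data known. The lists hold 611 genes, of which 605 were in the table and 496 were tested. Same-letter libraries of the 2 genotypes did not deviate together (correlations -0.0214, 0.0445, 0.00745 and -0.122), so letters were not treated as pairs. Positions and promoter sequences came from RefSeq, GRCm38.p6, the same build as mm10. Some genes that meet the rules for naming are not reported here.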

Additional observations from a re-analysis of the deposited data

Results flagged for a closer look

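In 3 of 82 groups of 4 libraries of the named genes, 1 library lay far from the other 3 relative to the range of the group. A nominal rate of 1 in 20 would flag 4.1. All named genes but Nr4a1 were chosen for calls without overlap between the groups, so that rate may not hold for them. Nr4a2 was at 12.23 FPKM in wild-type library D against 10.87 to 11.08 FPKM in the other 3. H2-Q6 was at 106.4 FPKM in knockout-labelled library D against 116 to 118 FPKM. Glycam1 was at 1.69 FPKM in knockout-labelled library A against 1.08 to 1.13 FPKM.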

How the results depend on the processing

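Across 19 alternatives the 994 calls of limma ranged from 712 without wild-type library B to 1040 with robust estimation; without 1 library they numbered 712 to 921, with 309 to 349 higher, 400 to 576 lower and 70 to 90 at 1.5-fold or more. The 1.5-fold counts are taken after a pseudocount is added, which was 1 FPKM in the main fit. A pseudocount of 5 FPKM left 35 genes called at 1.5-fold or more and one of 0.1 FPKM gave 129, in place of 90. The share called higher was 40.2% on deposited FPKM, 44.2% as TPM, 52.2% after quantile normalization (478 and 438) and 57.2% with median-of-ratios scaling, so which side held more calls depended on the scale. With the letters as a replicate block 740 genes were called, 693 of them among the 994. Of 767 values for the named genes, 756 kept direction and call, none reversed, and 11 lost the call. These were 10 for Nr4a1 (limma adjusted p 0.0200 to 0.133) and 1 for H2-Q6 without a filter (0.0545). The named rises and falls were chosen as the largest calls without overlap in these same libraries. Their retention is therefore no measure of how stable calls are in general. Of 130 called list genes, 90 were called in every alternative that tested them, 34 lost the call without at least 1 library and 28 under another scaling, and none changed sign. Precision depends on level: the median SD between libraries was 0.12 (log2) under 5 FPKM and 0.0456 from 100 FPKM.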

Other observations

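Calls were more frequent among abundant transcripts. Under a mean of 5 FPKM, 136 of 2799 genes were called (4.86%), 37 higher and 99 lower, and from 100 FPKM 143 of 804 (17.8%), 93 higher and 50 lower. With median-of-ratios scaling the split was 53 and 72 in the lowest class and 112 and 30 in the highest, so the lean of abundant genes to the higher side was seen on both scales.

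Metabolic lists differed from one another. Of 16 tested glycolysis genes, 4 were called lower and 1 higher, with Tpi1 at 42.4 to 46.1 FPKM in the wild-type libraries and 32.5 to 38.9 FPKM in the knockout-labelled libraries (-0.31, limma adjusted p = 0.00448). The count lower was 2 with median-of-ratios scaling, without a filter or without the eBayes trend, 2 without wild-type A, B or D or knockout-labelled A or D, and 1 without wild-type library C. The 1 higher call, Pgk1 (0.0995), was lost in all 8 fits that left out 1 library and after quantile normalization. None of 18 tested cholesterol synthesis genes was called with limma, with 3 higher and 1 lower at an unadjusted p under 0.05. Ribosome biogenesis gave 1 call of 22, Pes1 (-0.27). Amino acid transporters gave 2 higher calls of 12, Slc3a2 (0.21) and Slc38a2 (0.12), and none without wild-type B or D or knockout-labelled A or D. The call of Slc38a2 was also lost as TPM and after quantile normalization. Of 11 mRNA decay regulators, Zfp36l1 was higher (0.17) and Zfp36 (tristetraprolin) lower (-0.21).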
